A study of Mus musculus with 5 samples.

Results

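The SOCS family genes described here are Socs1, Socs2, Socs3 and Cish, the best-known members of the family that cytokines induce. They were taken by symbol and are 4 of the 15968 gene columns that all 3 deposited expression matrices share. The genes were chosen by name, with earlier results of these data known. Their levels are given in every cell class that the authors annotated and in every sample group.

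The series holds 5 droplet libraries (10x Genomics 3′ RNA) from mice. The 3 libraries of 5555 melanoma tumours hold live CD45+ cells sorted from C57BL/6 mice 4 days after injection of the tumour cells. The first group carried Ptgs-/- tumours in mice given the NK cell-depleting antibodies anti-NK1.1 (clone PK136) and anti-Asialo GM-1, the second carried Ptgs-/- tumours with no depletion, and the third carried Ptgs+/+ tumours. The Ptgs genes, which encode the cyclooxygenases that start prostaglandin synthesis, are missing from the injected tumour cells and not from the sorted immune cells. One further library holds CD45+ cells of CT26 tumours, a colon carcinoma line, in BALB/c mice at day 12. The last pools 3 hashtagged conditions of C57BL/6 bone marrow-derived dendritic cell (BMDC) cultures harvested at day 10: with 5555 Ptgs-/- cells, with 5555 Ptgs+/+ cells, and untreated. The ages of the mice and how many were pooled are not given in the sources used here, and each group is 1 library or 1 hashtagged condition.

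Cytokines such as interferons, interleukin-6 and GM-CSF bind receptors that carry JAK kinases, and the kinases activate STAT transcription factors. SOCS proteins are the feedback brake of this pathway: STATs switch on their genes, and the proteins then bind the receptor or the JAK kinase and stop the signal or mark the receptor for degradation. Socs1 is known for restraining interferon signals, Socs3 for restraining interleukin-6 and G-CSF signals through the receptor chains gp130 and the G-CSF receptor, and Socs2 and Cish for acting on receptors that signal through STAT5. Socs2 is a known marker of dendritic cells in the CCR7+ activated state, in which the cells migrate to lymph nodes.

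In the GENCODE vM21 annotation of GRCm38 (mm10), Socs1 (ENSMUSG00000038037.5) lies on the minus strand at chr16:10782240-10785536. Socs2 (ENSMUSG00000020027.18) lies on the minus strand at chr10:95385362-95417180, Socs3 (ENSMUSG00000053113.3) on the minus strand at chr11:117966079-117970047, and Cish (ENSMUSG00000032578.7) on the plus strand at chr9:107296026-107302784. Each is a protein-coding gene, and a 3′ UMI counts 1 RNA molecule of any of its isoforms. Cish overlaps 2 annotated antisense genes, Gm17040 and Gm17041, and the labels do not say whether strand was used in counting. No annotated gene overlaps the other members.

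The start-site windows below show stretches that match the motifs of the factors known to switch on such genes. Of the 4 members, 3 matched a RefSeq promoter window (250 bases before to 50 after the start; build GRCm38.p6), and Socs2 did not. Capitals mark the motif searched: TTCNNNGAA, the STAT site, which reads the same on both strands, in Socs3 and Cish, and GAAANNGAAA (TTTCNNTTTC on the other strand), the core of the interferon response element, in Socs1. The Socs3 stretch is chr11:117969492-117969540 on the minus strand, the Cish stretch chr9:107296654-107296683 on the plus strand, and the Socs1 stretch chr16:10785584-10785639 on the minus strand.
Socs3: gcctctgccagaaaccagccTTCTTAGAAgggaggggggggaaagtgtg
Cish: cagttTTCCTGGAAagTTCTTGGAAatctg
Socs1: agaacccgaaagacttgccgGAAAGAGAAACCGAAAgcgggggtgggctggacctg
Starts are those of the RefSeq windows. In Socs3 and Cish they lie inside the GENCODE spans given above, and so do the printed stretches of these genes. The Socs3 window held 1 STAT site, 154 bases before the start. The Cish window held 2, beginning at the start and 11 bases after it. The Socs1 window held 2 overlapping matches to the interferon element, 83 and 77 bases before the start, and no STAT site. Of 32851 mouse windows of this length, 2726 (8.30%) held the STAT site and 1131 (3.44%) the interferon element. These matches describe letters and show no binding.

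Of 11872 cells in the 5555 matrix, 11818 were used, with 8987 cells of CT26 and 10812 of the cultures. Summed UMIs ranged from 13341140 (Ptgs+/+ tumours) to 39748611 (CT26), and the median UMIs per cell were 5462, 4563 and 3633.5 in NK-depleted Ptgs-/-, Ptgs-/- and Ptgs+/+ tumours. Between 23 and 44 cell barcodes recurred between any 2 of the 3 matrices. A level below is a class's UMIs of the gene per 1000000 UMIs of that class in 1 library (CPM), with an exact Poisson 95% interval, and a ratio between groups has an exact binomial 95% interval. Both cover counting error only. With 1 library a group nothing can be tested against replicate error, and a difference is called where it is past 1.5-fold in a class with at least 30 cells and at least 20 UMIs of the gene over both groups. Where the median ratio of all compared genes lies over 0.1 log2 from 0 the call is made relative to that median. In a sum over cells, fewer expressing cells and less RNA per cell cannot be told apart, so shares of cells with a UMI are given for the main members.

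Socs2 was the member most concentrated in 1 cell class. In the class the authors call cDC3, which carried the CCR7+ dendritic cell markers, it had 669 CPM in NK-depleted Ptgs-/- tumours, 708 in Ptgs-/- tumours and 632 in Ptgs+/+ tumours. These values rest on 180, 258 and 179 UMIs in 45, 58 and 54 cells, and their intervals overlap. T cells came next, with 159, 62.7 and 100 CPM in the same groups. The gap between cDC3 and T cells was the only one in the Socs2 order of 14 classes where no interval of 1 class reached an interval of the next.

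The shares of cells with Socs2 had overlapping intervals between groups at equal depth. In cDC3, 80.0% of cells in NK-depleted Ptgs-/-, 94.8% in Ptgs-/- and 77.8% in Ptgs+/+ tumours held a Socs2 UMI. After each cell was thinned to 2000 UMIs the shares were 52.4%, 70.2% and 61.2%. In cDC1, the conventional dendritic cells that cross-present antigen, Socs2 stood at 0 UMIs in all 3 libraries. Those were 54, 33 and 38 cells in NK-depleted Ptgs-/-, Ptgs-/- and Ptgs+/+ tumours, at medians of 7481, 8261 and 5132 UMIs per cell, and the upper bounds of the levels were 8.80, 14.1 and 17.5 CPM. In cDC2, the other conventional subset, the levels were 9.76, 20.3 and 15.6, and in Monocytes 1 and Monocytes 2 they were at most 5.54.

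Socs3 had another distribution. By the median over the 3 libraries it was highest in neutrophils (262 CPM), TAM 2 (195) and Monocytes 1 (175), while cDC3 and cDC1 had ranks 10 and 11 of 14 classes. In Ptgs+/+ tumours it reached 639 CPM in the class Monocytes 2, 418 in neutrophils, 390 in cDC1, 374 in the class Mono Mac and 285 in Monocytes 1. The 4 macrophage classes (TAM 1 to TAM 4) held 137 to 217, cDC2 170, cDC3 95.3, T cells 90.9 and NK cells 84.8. The high places of cDC1 and Mono Mac were those of the Ptgs+/+ library. In NK-depleted Ptgs-/- and in Ptgs-/- tumours cDC1 held 31.0 and 91.7, Mono Mac 98.5 and 112, and cDC3 93.0 and 121. No neighbouring pair in the Socs3 order over the 3 libraries was separated by its intervals. Among B cells 1 of 36 in NK-depleted Ptgs-/- tumours and none of 44 and 23 in Ptgs-/- and Ptgs+/+ tumours held a Socs3 UMI. These few, shallow cells allow levels of up to 84.7, 49.9 and 143 CPM and set no background for the lower classes.

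Cish was highest in the class annotated as T cells, with 259, 227 and 173 CPM in NK-depleted Ptgs-/-, Ptgs-/- and Ptgs+/+ tumours. In each library the cells of this class without a UMI of the T cell gene Cd3e held more Cish than the others, as given below. By the median over the 3 libraries TAM 2 came next, with 55.6, 53.7 and 15.2, and this step was the only one in the Cish order where intervals did not meet. Among the classes with at least 30 cells in all 3 libraries cDC1 was lowest, with 2.39, 3.82 and 0 CPM. B cells held 1, 0 and 0 Cish UMIs. Neutrophils had 162, 46.3 and 5.58 CPM on only 13, 6 and 1 UMIs.

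Socs1 was highest by the median in cDC3, T cells and NK cells, 3 classes whose intervals overlap. T cells held 92.8, 62.7 and 63.7 CPM in NK-depleted Ptgs-/-, Ptgs-/- and Ptgs+/+ tumours, and NK cells 61.3, 55.7 and 64.5. The macrophage, monocyte and cDC2 classes lay between 5.0 and 32.1. The plot of levels by class in 5555 tumours shows all 4 members together.

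The genes whose levels ran most like each member over the 41 class-by-library sums of the 5555 tumours (at least 30 cells each) were taken from 6024 candidates by Pearson's r of log2(CPM + 5). These points share libraries and cell classes, so r is a description. For Socs2 they were Aebp2, a cofactor of the Polycomb repressive complex, Il2ra, the alpha chain of the interleukin-2 receptor, and Zfand6, at r = 0.86, 0.84 and 0.83. Over the 14 classes of CT26 the same 3 genes had r = 0.86, 0.83 and 0.78, and over the 18 culture sums 0.87, 0.90 and 0.82. Il2ra stood in cDC3 at 253, 230 and 226 CPM in NK-depleted Ptgs-/-, Ptgs-/- and Ptgs+/+ tumours, against 1.26, 4.50 and 2.73 in cDC2.

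The likeness of the other members was lower in the cultures for each gene named, highest at 0.59 for Arrdc4 with Socs3. In CT26 it was kept by the genes nearest to Cish and for some of those nearest to Socs3. For Socs3 the nearest genes were Tnfrsf1a, the main receptor for tumour necrosis factor, Arrdc4 and Nfil3, a bZIP transcription factor, at r = 0.83, 0.82 and 0.82. Over CT26 these were 0.85, 0.76 and 0.51, and over the cultures 0.16, 0.59 and 0.24. For Cish they were Cd3g, a chain of the T cell receptor complex, Rora, a nuclear receptor, and Il1rl1, the receptor for interleukin-33, at 0.78, 0.78 and 0.76, against 0.75, 0.76 and 0.75 in CT26. In the cultures, Cd3g, Rora and Il1rl1 had r = -0.42, -0.77 and 0.39 with Cish. For Socs1 they were H2-Q4, Il2ra and Tcf7, at 0.81, 0.77 and 0.77, with 0.54, 0.36 and 0.58 in CT26 and -0.24, -0.17 and -0.38 in the cultures.

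Among the members themselves, Socs1 and Socs2 had r = 0.69 over the 5555 sums, Socs1 and Cish 0.54, and Socs2 and Cish 0.49. Socs3 had r = -0.04 with Socs1, -0.13 with Socs2 and -0.06 with Cish. Outside the 5555 tumours these values were kept in part. Over CT26 and over the cultures r was 0.45 and 0.73 for Socs1 and Cish, positive in both. For Socs2 and Cish it was 0.57 and 0.07, kept in CT26 only. For Socs1 and Socs2 r was 0.15 and -0.40, kept in neither. With Socs3 it was -0.26 and -0.38 for Socs1, -0.43 and 0.56 for Socs2, and -0.43 and 0.11 for Cish.

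The comparison of Ptgs-/- with Ptgs+/+ tumours asks how the members' levels in the infiltrating cells differ when the injected tumour cells lack the Ptgs genes. Socs3 was lower in Ptgs-/- tumours in 7 of the 13 classes compared and higher in none. Cish was higher in 5 of 9 and lower in none, Socs2 higher in 5 and lower in 2 of 9, and Socs1 higher in 1 and lower in 1 of 10. Over all 4 members 41 of 52 possible pairs of member and class could be compared, and 11 (26.8%) were called higher, against 17.5% of all genes and classes. Called lower were 10 (24.4%), against 13.2% of all genes. The median log2 ratio over classes was -0.70 for Socs3, 0.91 for Socs2, 1.27 for Cish and 0.01 for Socs1, against 0.04 over all genes.

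The largest Socs3 differences lay in monocyte-lineage cells and in cDC1. In Monocytes 2 the level was 169 CPM in Ptgs-/- tumours and 639 in Ptgs+/+ tumours (169 and 770 UMIs), a ratio of 0.265 (0.223 to 0.313). Of these monocytes 31.5% held a Socs3 UMI in Ptgs-/- tumours and 70.7% in Ptgs+/+ tumours, and at 2000 UMIs per cell the shares were 21.3% and 59.7%. In Mono Mac the levels were 112 and 374 CPM, a ratio of 0.30 (0.25 to 0.361). The difference thus appeared in the share of positive cells as well as in the sum.

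In cDC1 the Socs3 level was 91.7 CPM in Ptgs-/- tumours and 390 in Ptgs+/+ tumours, a ratio of 0.235 (0.143 to 0.374). This rests on 24 UMIs in 33 cells and 82 UMIs in 38 cells, and at equal depth 12.1% and 50.0% of those cells held a UMI. The cDC1 cells of the groups also differed in other ways. The summed cDC1 markers stood at 4243 CPM in Ptgs-/- and 2620 in Ptgs+/+ tumours, with all 5 seen in both, the proliferation markers at 768 and 9.51, and the neutrophil markers at 1570 and 14.3. Of the 5 proliferation markers Mki67, Top2a, Birc5 and Ccnb2 were at 0 in Ptgs+/+ cDC1. The part of these in the Socs3 difference was not tested.

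The remaining called Socs3 classes were neutrophils, Monocytes 1, TAM 4 and T cells. Neutrophils held 216 CPM in Ptgs-/- tumours and 418 in Ptgs+/+ tumours, a ratio of 0.517 (0.322 to 0.807), from 28 and 75 UMIs. Monocytes 1 held 175 and 285, a ratio of 0.615 (0.540 to 0.701), which came within the fold, at a log2 ratio of -0.52, without the 5% of cells with the most genes. TAM 4 held 102 and 213, a ratio of 0.482 (0.323 to 0.715), and T cells 38.9 and 90.9 on only 18 and 10 UMIs, with an interval of the ratio from 0.187 to 1.04. In cDC2 and cDC3 Socs3 was not called: cDC2 stood at 160 and 170 CPM, a ratio of 0.941 (0.833 to 1.06), and cDC3 at 121 and 95.3, a ratio of 1.27 (0.767 to 2.13). TAM 1 was slightly higher in Ptgs-/- tumours, at 165 and 137, a ratio of 1.20 (1.08 to 1.34), within the fold.

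Neutrophil transcripts, which stand highest in a cell type that itself held much Socs3, moved with these differences in part. The sum of the neutrophil markers in Mono Mac was 7.03 CPM in Ptgs-/- tumours and 401 in Ptgs+/+ tumours, and in Monocytes 2 it was 846 and 1021. In neutrophils themselves it was 22519 and 30973. Without the cells that held a UMI of another lineage's defining gene, S100a8 among them, the log2 ratio of Socs3 was -1.68 in Mono Mac and -1.89 in Monocytes 2, against -1.74 and -1.92 with all cells. The other called Socs3 classes stayed past the fold in the same way, from -1.99 in cDC1 to -0.70 in Monocytes 1. This filter keeps every cell in which no such UMI was seen. It does not apply S100a8 to neutrophils, nor the macrophage gene C1qa to monocyte and macrophage classes. The part of neutrophil transcripts in the Socs3 differences was not tested.

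Cish differed in the opposite direction. In cDC2 it stood at 45.9 CPM in Ptgs-/- tumours and 10.9 in Ptgs+/+ tumours (194 and 28 UMIs), a ratio of 4.2 (2.82 to 6.49). A Cish UMI was found in 22.4% and 5.80% of cDC2 cells, and in 7.65% and 1.60% at 2000 UMIs per cell. TAM 2 held 53.7 and 15.2 (ratio 3.54, 2.24 to 5.65), TAM 1 held 19.6 and 7.47 (2.63, 1.71 to 4.19), Monocytes 1 held 23.0 and 6.83 (3.37, 1.65 to 8.02) and Monocytes 2 held 44.1 and 18.3 (2.41, 1.42 to 4.23). In T cells, its highest class, Cish was within the fold at 227 and 173, a ratio of 1.31 (0.800 to 2.27). The monocyte markers also differed within cDC2, with a sum of 3300 CPM in Ptgs-/- tumours and 1219 in Ptgs+/+ tumours, and their part in the Cish difference was not tested.

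Socs2 was higher in Ptgs-/- tumours mainly in macrophages, where it was low. TAM 1 held 18.2 CPM in Ptgs-/- tumours and 5.17 in Ptgs+/+ tumours, a ratio of 3.51 (2.13 to 6.15), and TAM 2 held 12.1 and 4.02, a ratio of 3.00 (1.13 to 8.19). Mono Mac held 27.0 and 12.8, a ratio of 2.11 (0.972 to 5.45), and TAM 3 held 11.2 and 5.30, a ratio of 2.11 (0.712 to 8.45). As a difference of mean log2(CPM + 1) per cell the TAM 3 value turned to -0.034. Monocytes 1 held 25 UMIs in Ptgs-/- tumours and none in Ptgs+/+ tumours, at least 2.16-fold higher against a floor of 3 counts. The intervals of Mono Mac and TAM 3 include 1, and so do those of T cells (0.626, 0.304 to 1.39) and NK cells (0.644, 0.239 to 2.01), where Socs2 was lower. In cDC3, where Socs2 is abundant, the ratio was 1.12 (0.922 to 1.36).

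Socs1 was lower in cDC3 of Ptgs-/- tumours. The level was 27.4 CPM in Ptgs-/- tumours and 106 in Ptgs+/+ tumours, and the ratio was 0.259 (0.113 to 0.544), or 3.86-fold lower. It rests on 10 UMIs in 6 of 58 cells and 30 UMIs in 17 of 54 cells, and 1 cell held 4 of the 10 in Ptgs-/- tumours and 7 of the 30 in Ptgs+/+ tumours. At 2000 UMIs per cell 5.26% (1.10 to 14.6) and 12.2% (4.63 to 24.8) of cells held a Socs1 UMI, shares whose intervals overlap. The CCR7+ marker sum in this class was 10474 CPM in Ptgs-/- and 7601 in Ptgs+/+ tumours. In Monocytes 2 the direction was opposite, at 32.1 and 17.4 CPM, a ratio of 1.84 (1.03 to 3.36). The same class thus held less Socs3 and more Socs1 and Cish in Ptgs-/- tumours, as the plot of Ptgs ratios by class shows.

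**Figure D1:**
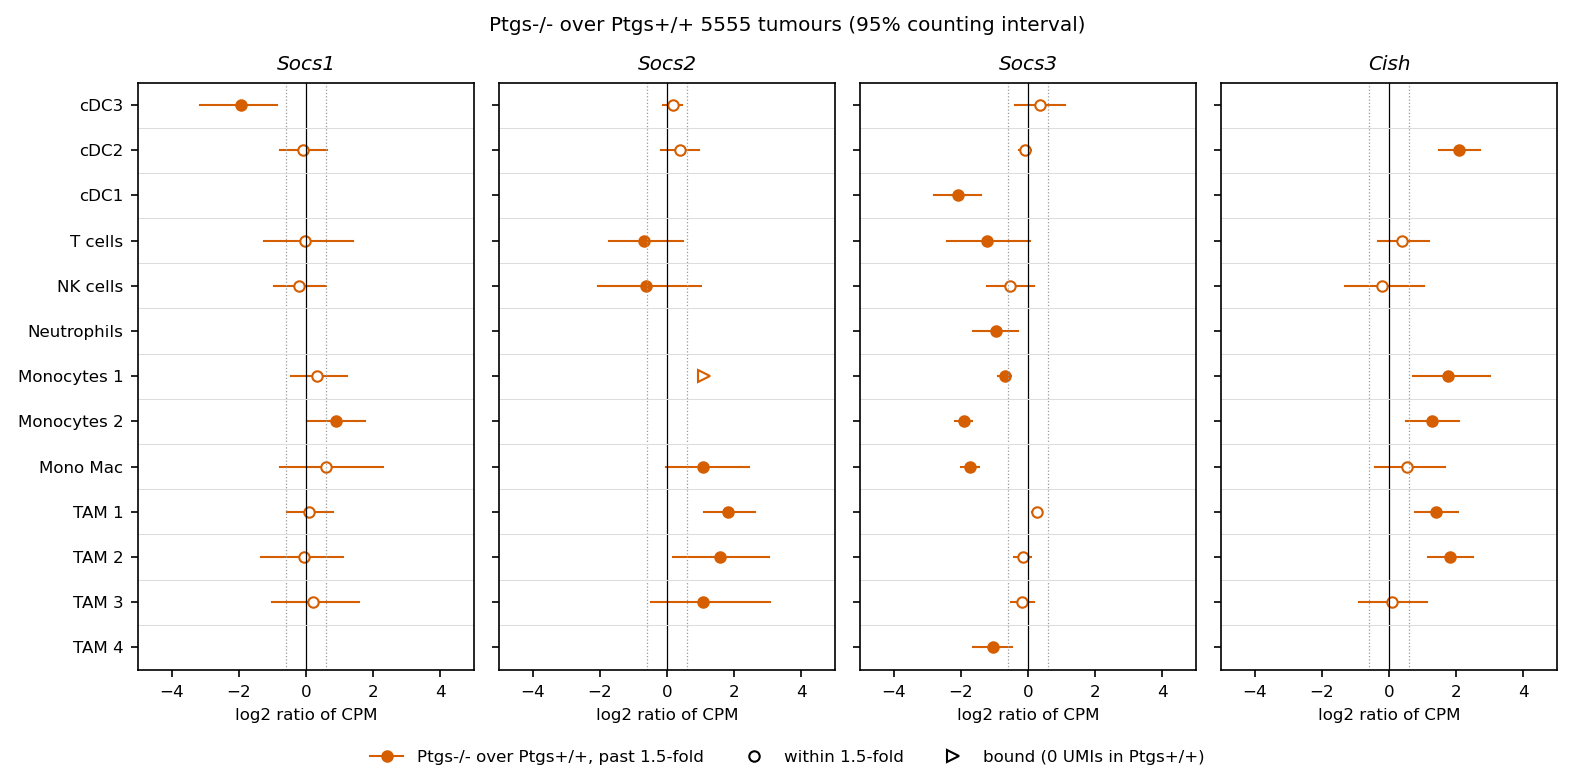
Ratios of Ptgs-/- over Ptgs+/+ tumours for the 4 members in each 5555 class with at least 20 UMIs over both (log2 axis), with exact binomial 95% intervals. Socs3 lies below 0 in Monocytes 2 (-1.92), Mono Mac (-1.74) and cDC1 (-2.09), and Cish lies above 0 in cDC2 (2.07).

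The comparison of NK-depleted with undepleted Ptgs-/- tumours asks which levels differ once NK cells are removed by antibody. Of 40 pairs compared, out of 56 possible, 5 (12.5%) were called higher, against 9.87% of all genes and classes, and 9 (22.5%) lower, against 10.8%. These counts include Cish and Socs2 (higher) and Socs3 (lower) in cells annotated as NK cells, a label that covers different cells in these libraries, as described below. Socs3 was called higher in no class after depletion: it was called lower in cDC1 and in cells annotated as NK cells, and its ratio in the other classes with at least 20 UMIs ran from 0.70 in Monocytes 2 to 1.21 (0.653 to 2.21) in neutrophils. The call in annotated NK cells rests on 4 and 71 UMIs in NK-depleted and undepleted tumours, and its ratio of 0.469 had an interval that included 1 (0.124 to 1.25). In cDC1 it stood at 31.0 CPM in NK-depleted and 91.7 in undepleted tumours, a ratio of 0.338 (0.158 to 0.692) on 13 and 24 UMIs. Of these, 1 cell held 3 of the 13 and 1 cell held 6 of the 24. The undepleted cDC1 cells are those whose neutrophil and proliferation markers are given above, and the part of these in the ratio was not tested. This comparison shares the undepleted library with the one above.

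Socs1 in cDC3 stood at 85.5 CPM in NK-depleted tumours and 27.4 in undepleted tumours, a ratio of 3.12 (1.43 to 7.34) on 23 and 10 UMIs. The Ptgs+/+ level in the same class was 106, so the undepleted Ptgs-/- library was the low one of the 3. In Monocytes 2 Socs1 stood at 5.0 and 32.1 CPM in NK-depleted and undepleted tumours, 6.41-fold lower with a ratio of 0.156 (0.0684 to 0.325), and in TAM 1 at 14.3 and 8.93, a ratio of 1.61 (1.08 to 2.39). Socs1 thus stood on opposite sides in these classes.

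Cish was lower after depletion in Monocytes 1, at 12.1 CPM in NK-depleted and 23.0 in undepleted tumours (ratio 0.525, 0.392 to 0.702), and in Monocytes 2, at 21.5 and 44.1 (0.488, 0.313 to 0.760). In TAM 3 the interval of the Cish ratio included 1 (0.578, 0.280 to 1.12). In cDC2 the Cish level stayed within the fold, at 37.5 and 45.9 CPM. Socs2 was lower in cDC2, at 9.76 and 20.3 CPM (ratio 0.480, 0.307 to 0.731), and in Monocytes 1, at 0.789 and 5.54 (0.142, 0.0478 to 0.356). In Mono Mac the Socs2 ratio was 0.477 (0.313 to 0.716), a difference that ended within the fold at 2000 UMIs per cell. Socs2 in cDC3 did not differ beyond counting error, at a ratio of 0.946 (0.778 to 1.15).

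The largest ratio was that of Cish in cells annotated as NK cells, at 239 CPM in 45 cells of NK-depleted tumours and 26.2 in 510 cells of undepleted tumours, a ratio of 9.10 (5.47 to 15.2). Socs2 in the same cells stood at 61.3 and 13.1, a ratio of 4.68 (1.82 to 11.2). The label of these cells went against its markers: after depletion 1 of the 5 NK markers was seen and the sum was 13.6 CPM, against 8557 without depletion, and Ncr1, Gzma, Prf1 and Eomes were at 0. The summed T cell markers in the same class stood at 1622 and 235 CPM. By these markers the label covers different cells in the 2 libraries, so these ratios, and that of Socs3 above, do not set NK cells against NK cells.

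Cells were split after the values had been seen, by whether they held a Cd3e UMI, Cd3e being a chain of the T cell receptor complex. Among the 45 cells annotated as NK in the NK-depleted library, the 24 with Cd3e held 223 CPM of Cish and the 21 without it 266, on 21 and 14 UMIs. Among annotated T cells of that library, the 47 with Cd3e held 66.9 and the 62 without it 425, on 8 and 59 UMIs. In the undepleted Ptgs-/- library those T cell values were 195 in 110 cells and 267 in 104 cells (50 and 55 UMIs), and in the Ptgs+/+ library 114 in 35 cells and 246 in 31 cells (7 and 12 UMIs). Annotated NK cells of the undepleted library had 73.9 with Cd3e and 23.4 without it (5 and 27 UMIs). The difference between T cells with and without a Cd3e UMI was widest in the NK-depleted library. In the NK-depleted library those 62 cells also held 141 UMIs of Il1rl1 and 248 of Gata3, a transcription factor of type 2 lymphocytes, against 12 and 54 in the 47 cells with Cd3e. In the undepleted Ptgs-/- library T cells without Cd3e held 116 and 169, against 65 and 147 with it. In the Ptgs+/+ library the counts were 24 and 44, against 10 and 11. Annotated NK cells of the NK-depleted library held 15 and 52 without Cd3e, against 22 and 30 with it. Across all T cells Socs2 stood at 159 CPM in NK-depleted and 62.7 in undepleted tumours, a ratio of 2.53 (1.54 to 4.22).

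**Figure D2:**
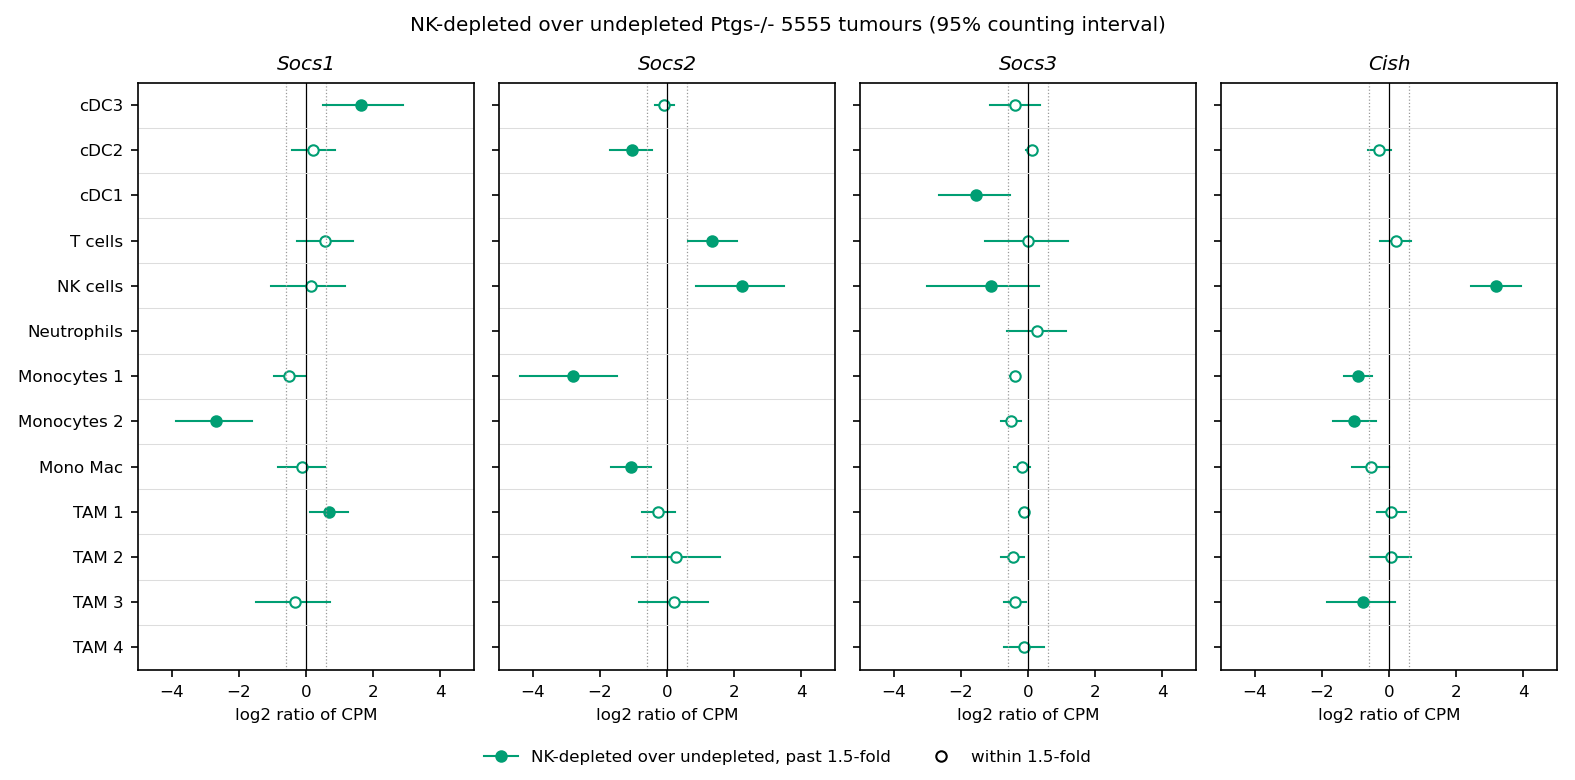
Ratios of NK-depleted over undepleted Ptgs-/- tumours for the 4 members in each 5555 class (log2 axis), with exact binomial 95% intervals. Cish in cells annotated as NK cells (3.19) lies highest; Socs1 lies above 0 in cDC3 (1.64) and below 0 in Monocytes 2 (-2.68).

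In CT26 tumours, which differ from the 5555 tumours in line, mouse strain, day and library together, levels are given side by side without a ratio. Socs2 was again highest in the CCR7+ class, called actDC there, at 458 CPM (402 to 519). It was found in 80.4% of the 112 cells, and in 53.6% at 2000 UMIs per cell. T cells followed at 106 and proliferating cells at 68.7, both separated from the next class by their intervals, and cDC1 was lowest at 1.60. In 5555 Ptgs+/+ tumours the matching values were 632 in cDC3, 100 in T cells and 0 in cDC1.

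The other members kept some of their order. Cish was highest in T cells of CT26 at 112 CPM, apart from cDC2 at 43.1, against 173 and 10.9 in 5555 Ptgs+/+ tumours. Socs3 was highest in TAM 3 at 202 and Monocyte 1 at 186, and its lowest classes were cDC1 (44.3), T cells (42.8) and proliferating cells (28.9). In cDC1 it stood at 44.3 CPM in CT26 and 390 in 5555 Ptgs+/+ tumours. Socs1 was highest in Monocyte 2 of CT26 at 161 CPM (147 to 177), with T cells at 120 and NK cells at 84.8, whereas actDC held 40.0. In the 5555 Ptgs+/+ library Socs1 was highest in cDC3, at 106.

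**Figure D3:**
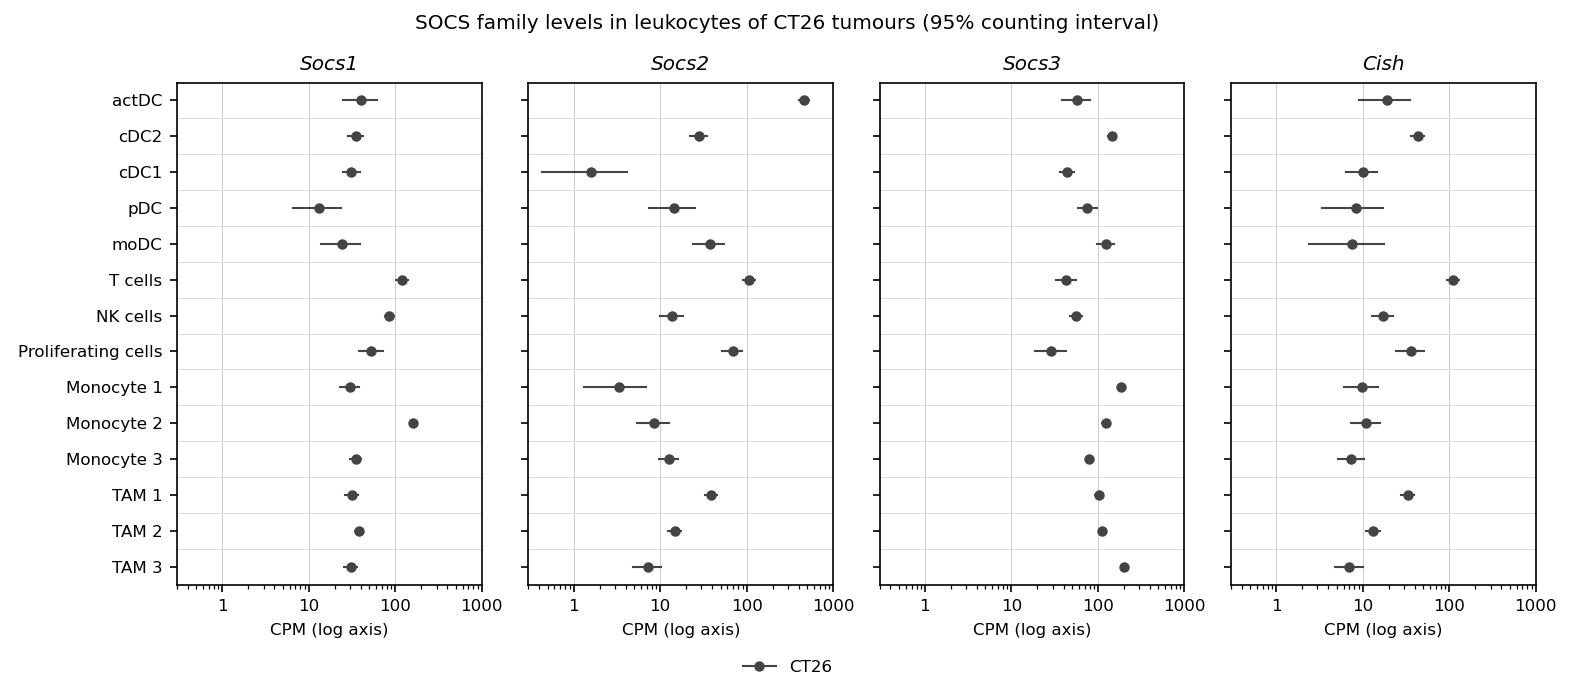
Levels of the 4 members (CPM of the class, log axis) in the 14 annotated classes of the CT26 library, with exact Poisson 95% intervals. Socs2 stands apart in actDC at 458 and Socs1 is highest in Monocyte 2 at 161.

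The culture conditions put dendritic cells beside 5555 cells without other tumour tissue. Levels are given with Ptgs-/- cells, with Ptgs+/+ cells and untreated, which are hashtags of 1 library. Socs2 was highest in the CCR7+ class, called mDC there, at 175, 215 and 184 CPM, and lowest in cDC1, at 9.04, 8.82 and 5.21. The share of mDC with a Socs2 UMI was 59.1%, 65.4% and 62.6%. Socs2 thus had the same order among CCR7+ dendritic cells, cDC2 (52.3, 59.0 and 52.9) and cDC1 in tumours and in culture.

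Cish was widespread in the cultures, at 192, 219 and 207 CPM in mDC, 216, 248 and 196 in cDC2 and 201, 214 and 160 in cDC1, and low in the plasmacytoid class pDC at 35.8, 57.8 and 37.1. Socs3 was low throughout, between 8.12 and 35.3 CPM in all 6 classes. Socs1 lay between 10.9 (pDC with Ptgs-/- cells) and 55.3 (untreated cDC1).

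With Ptgs+/+ cells against untreated, 10 of 24 pairs (41.7%) were called higher, against 12.2% of all genes and classes, and none lower, against 14.5%. Part of this lies in the centring: in 5 of the 6 classes the median gene was lower with Ptgs+/+ cells by more than 0.1 log2, most in mDC at -0.33, and without centring 7 pairs were called higher and none lower, against 7.55% and 23.3% of all genes. Socs3 was higher in cDC2, at 34.0 CPM with Ptgs+/+ cells and 21.1 untreated (ratio 1.61, 1.32 to 1.96), in cDC1 at 13.3 and 8.26 (1.61, 1.21 to 2.14), and in pDC at 22.7 and 8.12 (2.80, 1.15 to 7.76). The pDC values rest on 22 and 7 UMIs, with 5 of the 22 in 1 cell. The neutrophil markers of pDC, given below, also differed, and their part was not tested. Socs2 was higher in cDC1, at 8.82 and 5.21 (1.69, 1.19 to 2.43). As differences of mean log2(CPM + 1) per cell, relative to the median gene, these Socs3 and Socs2 values came within the fold, at 0.40, 0.26 and 0.39 for Socs3 in cDC2, cDC1 and pDC and 0.21 for Socs2 in cDC1. On that scale 2 pairs of the 24 were called higher and 3 lower. Cish in cDC1 stood at 214 and 160, a ratio of 1.33 (1.25 to 1.42) that is past the fold only against the median gene, at 1.63. Socs3 in proliferating cDC2 was also called, at 18.9 and 12.1, with a ratio whose interval includes 1 (1.57, 0.929 to 2.73).

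With Ptgs-/- cells against untreated, 5 pairs (20.8%) were called higher, against 9.29%, and 2 (8.33%) lower, against 12.3%. Without centring these counts were the same, against 5.99% and 19.0% of all genes. Socs3 was higher in cDC2, at 35.3 CPM with Ptgs-/- cells and 21.1 untreated (ratio 1.67, 1.37 to 2.03), in cDC1 at 14.9 and 8.26 (1.80, 1.36 to 2.40), and in pDC at 24.9 and 8.12 (3.06, 1.33 to 8.23). The pDC values rest on 32 and 7 UMIs. By mean log2 per cell these Socs3 values also came within the fold, at 0.49, 0.24 and 0.41. Both conditions share the untreated cells. Socs1 was lower in mDC, at 21.5 and 46.7 CPM (0.461, 0.339 to 0.626), and 0.564 relative to the median gene. With Ptgs+/+ cells the Socs1 level in mDC was 31.2, and its ratio to untreated was 0.668 (0.529 to 0.850), or 0.839 relative to the median gene.

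Set directly against each other, cultures with Ptgs-/- cells had no pair called higher than cultures with Ptgs+/+ cells, against 6.38% of all genes, and 4 (16.7%) lower, against 6.07%. Of these, 3 lay in pDC: Cish at 35.8 and 57.8 CPM (ratio 0.618, 0.409 to 0.930), Socs2 at 34.2 and 54.7 (0.625, 0.409 to 0.95) and Socs1 at 10.9 and 18.6 on 14 and 18 UMIs (0.585, 0.269 to 1.25, which includes 1). Of the Socs2 UMIs in pDC, 14 of 44 with Ptgs-/- cells and 10 of 53 with Ptgs+/+ cells lay in 1 cell each. As a mean over cells of CPM with a pseudocount of 5, the Cish difference in pDC came within the fold, at -0.34 log2. The fourth was Socs2 in proliferating cDC1, at 10.6 and 16.5 (0.643, 0.479 to 0.859). The summed neutrophil markers in pDC were 5224 CPM with Ptgs-/- cells, 20768 with Ptgs+/+ cells and 3006 untreated, and their part in the pDC values was not tested. Socs3 differed by less than the fold between these culture conditions in each class compared, with 35.3 and 34.0 in cDC2 and 14.9 and 13.3 in cDC1. Of the 7 classes where it was lower in Ptgs-/- tumours, cDC1 alone has a counterpart among the annotated culture classes. Socs3 was also low in all culture classes, so the tumour and culture results cover unlike cells and levels.

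**Figure D4:**
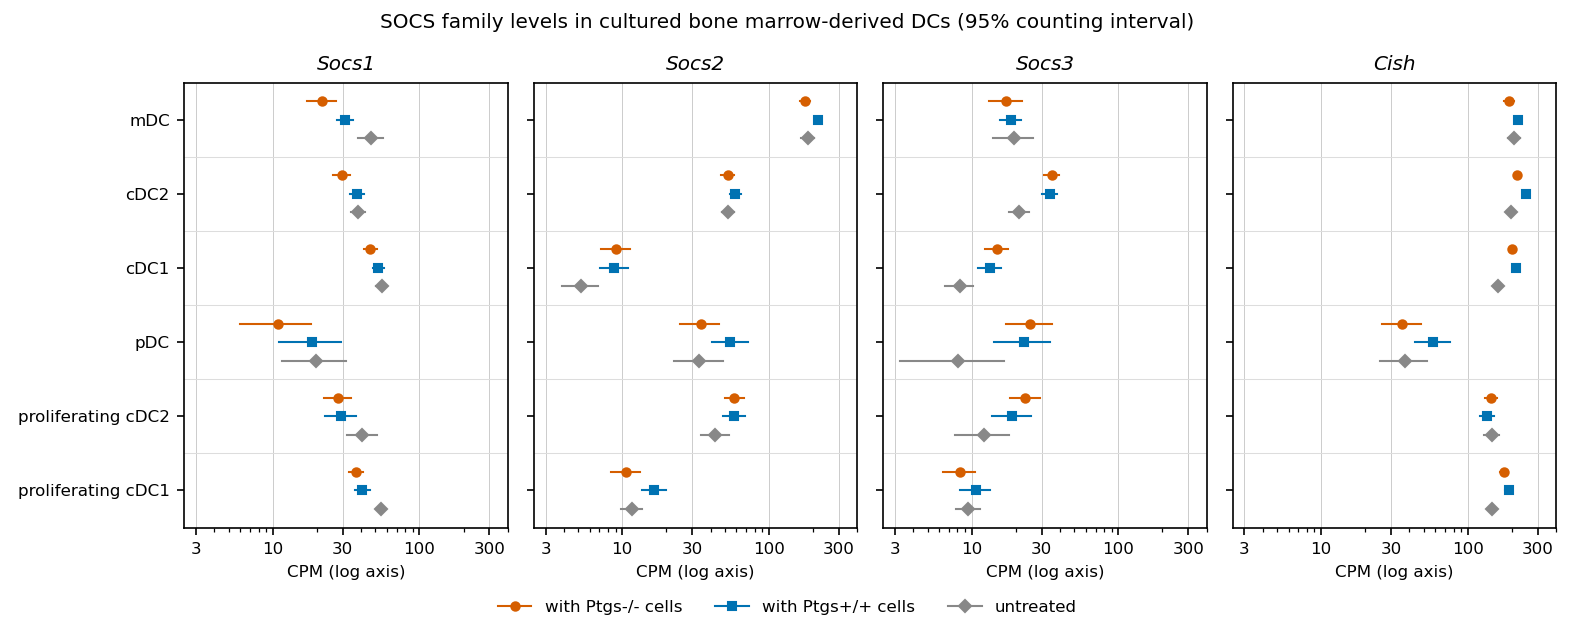
Levels of the 4 members (CPM of the class, log axis) in the 6 annotated classes of the BMDC cultures, for each of the 3 conditions, with exact Poisson 95% intervals. Socs2 is highest in mDC at 175 to 215, and Socs3 is lowest in the untreated condition of cDC2 (21.1), cDC1 (8.26) and pDC (8.12).

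The rest of the pathway was described through 101 other genes in 9 lists, which were chosen with earlier results of these data known. In cDC3, 13 of the 62 genes that could be compared were called higher in Ptgs-/- than in Ptgs+/+ tumours and 11 lower, while the class background was 17.7% and 21.1%. Of 19 cytokine receptors 7 were lower and 1 higher. Il15ra, which presents interleukin-15, stood at 52.1 CPM in Ptgs-/- and 131 in Ptgs+/+ tumours, and Ifnar1, a chain of the type I interferon receptor, at 54.9 and 109. Stat3, the factor that mediates interleukin-6 and interleukin-10 signals, stood at 368 and 741, a ratio of 0.496 (0.396 to 0.619). Of 7 STAT factors Stat2 was the 1 called higher and Stat3 the 1 called lower, and of 4 SOCS family genes compared Socs4 was called higher (14 and 6 UMIs) and Socs1 lower. Of 4 ligands 1 was higher and 1 lower: Il15 stood at 87.8 and 14.1, and Osm, which signals through gp130, at 21.9 and 155. Of 7 STAT5 targets 2 were higher, Ccnd1 and Ccnd2, and 1 was lower, Osm.

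In cDC2, 22 of 83 genes were higher in Ptgs-/- than in Ptgs+/+ tumours and 11 lower, on a background of 17.5% and 11.6%. Of 9 STAT5 targets, the group that Cish belongs to by function, 5 were higher and none lower. They were Tnfrsf4, Ccnd2 (339 and 162 CPM, ratio 2.10), Bcl2l1 (35.7 and 17.9), Il2ra, at the low cDC2 levels given above, and Ccnd1. Of 24 cytokine receptors 5 were higher and 7 lower. Lifr, the receptor for leukaemia inhibitory factor, was higher, at 79.7 CPM in Ptgs-/- and 14.8 in Ptgs+/+ tumours, as were Il27ra, Il2rb and Il15ra. Csf2rb2, the mouse beta chain specific to interleukin-3, was lower, at 52.3 and 127, and so was Il4ra at 112 and 230. Of 6 ligands 4 were higher and none lower: Il10 (21 and 1 UMIs), Il6 at 6.62 and 1.95 CPM, Il15 at 11.6 and 5.07, and Ebi3. Of the remaining SOCS family genes Socs6 was higher, at 59.6 and 23.0 (2.59, 1.94 to 3.50), and Socs5 lower, at 11.1 and 17.9 (0.620, 0.404 to 0.952), whereas Socs4 stood at 36.4 and 37.0 and Socs7 at 29.1 and 23.8.

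In Monocytes 2, 18 of 73 genes were higher in Ptgs-/- than in Ptgs+/+ tumours and 5 lower, on a background of 13.0% and 9.73%. Usp18, a brake on interferon receptors, was higher, at 90.1 CPM in Ptgs-/- and 23.2 in Ptgs+/+ tumours (3.88, 2.51 to 6.16). Of 7 ligands 2 were higher, Csf1 at 22.0 and 6.64 and Il15 at 45.1 and 21.6, and 2 lower, Il6 at 24.0 and 61.4 (0.392, 0.236 to 0.628) and Osm at 323 and 491 (0.657, 0.571 to 0.753). Of 9 STAT3 targets 1 was higher and 2 lower. Of 7 STAT5 targets 2 were higher, Ccnd2 and Bcl2, and 1 was lower, Osm. Their median log2 ratio was -0.42, against 0.05 over all genes, although Cish was called higher in this class.

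In cultured mDC, 23 of 80 genes were higher with Ptgs+/+ cells than untreated and 7 lower, on a background of 15.2% and 19.6%. None of the 8 SOCS family genes was called in either direction. Of 9 STAT5 targets 4 were higher and 2 lower. Of 10 STAT3 targets 5 were higher and 1 lower, and of 5 ligands 4 were higher, among them Il12b at 186 CPM with Ptgs+/+ cells and 35.6 untreated and Il6 at 17.9 and 3.70. No JAK kinase was called in any of these 4 class comparisons.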

How the data were processed

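The authors deposited 3 matrices with 1 value per cell and gene. Per the submitters' processing notes, Cell Ranger 3.0.2, mm10 and Partek were used; their settings and order are not given in the sources used here. The deposited values are log2(CPM + 1): back-transformed, every cell summed to the same total within 0.00245%, and 99.9% of values above 0 were whole numbers of UMIs (within 0.1 UMI plus 0.01%), which were recovered. In each matrix 16 to 18 genes held parts of a UMI. Cells were joined to the authors' class labels by barcode. In the 5555 matrix 54 cells without an annotation or with a shared barcode were left out. The fewest UMIs in a cell were 500. No doublet caller was run and no cells were clustered again.

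UMIs were summed per class and library (Python 3.11.15, numpy 2.4.6, pandas 2.3.3, scipy 1.17.1, matplotlib 3.10.9), and the calculation was tested on simulated data. With 1 library or hashtagged condition a group, no p-value was computed. The 5 comparisons were repeated under 10 alternatives. Named beside the 4 members are, per pathway list, at most 4 called genes in each direction with the largest ratios, and the 3 genes most like each member. The members, lists and markers were chosen with earlier results of these data known. Results of 1 pathway list and of 1 gene are not reported here.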

Additional observations from a re-analysis of the deposited data

How the results depend on the processing

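No paired analysis was possible because each group is 1 library or 1 hashtagged condition; for the same reason no replicate could be left out. Of 479 values of the 56 called pairs of member and class under the alternatives, 443 stayed within the counting interval of the reported ratio, 34 moved beyond it and 2 changed sign (log2 ratio): Socs2 in TAM 3, Ptgs-/- over Ptgs+/+, at -0.034 as a difference of mean log2(CPM + 1), and Cish in pDC, with Ptgs+/+ cells over untreated, at -0.017 when thinned. The cause was not tested. Some alternatives, such as no minimum of UMIs (all 56 within the interval), leave the sums of a pair as they were, so the pooled count says little about stability. By mean log2, 35 values stayed within the interval, 20 moved beyond it and 1 changed sign. When thinned, 29 stayed within, 6 moved beyond and 1 changed sign. For Ptgs-/- over Ptgs+/+ the 11 higher pairs became 6 by mean log2 and 17 with no minimum of UMIs, and the 10 lower pairs 6 when thinned, where only 23 pairs could be compared. After NK depletion the 5 higher pairs became 3 when thinned, and the 9 lower pairs 4 by mean log2 and 16 with no minimum. With Ptgs+/+ cells over untreated, the 10 higher pairs became 2 by mean log2, 6 when thinned and 2 at 2-fold, and the 0 lower pairs became 3 by mean log2 and 1 without the 5% of cells with the most genes. With Ptgs-/- cells over untreated, the 5 higher pairs became 2 by mean log2 and 3 at 2-fold, and the 2 lower pairs 0 at 2-fold. With Ptgs-/- over with Ptgs+/+ cells, the 4 lower pairs became 2 as means over cells of CPM (pseudocounts of 5 and of 1), 2 by mean log2 and 0 at 2-fold. Thinned to 2000 UMIs, Socs2 in cDC3 stood at 571 CPM in NK-depleted Ptgs-/- and 816 in Ptgs-/- tumours, and Socs3 in Ptgs-/- neutrophils at 0, where 3 of 111 cells were deep enough. Neutrophils, with a median of 842 to 1156 UMIs per cell, and classes under 60 cells limit what these libraries can show.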
